A study of Mus musculus with 7 samples.

Results

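The promoters of the cytosolic ribosomal protein genes were examined for open chromatin in MuSCs, the stem cells that express PAX7 and rebuild skeletal muscle after damage. Members were protein-coding mouse genes, taken by symbol alone: Rpl or Rps followed by a number, Rplp0, Rplp1, Rplp2 and Rpsa. S6 kinase genes (10) and protein-coding genes with a pseudogene symbol (2) were dropped. This left 89 of 21440 protein-coding genes with an annotated start: 46 proteins of the large subunit, 31 of the small subunit, 11 paralogs or retrogenes, and Rps19bp1, which the symbol rule catches although it is a binding partner of Rps19 and not a ribosomal protein.

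ATAC-seq, in which the Tn5 transposase cuts and tags open DNA, had been performed on 5000 freshly sorted hindlimb MuSCs per library. The 4 Nedd4L-cKO libraries came from Nedd4L fl/fl Pax7 cre/+ mice on a C57BL/6 background, and the 3 WT libraries from wild-type mice. All were young males, matched for age and sex per the study's methods. Nedd4L is a ubiquitin ligase, and Cre recombinase made from the Pax7 locus cuts out a floxed exon needed for its activity. A Nedd4L mRNA therefore remains in the sorted cells while the enzymatic function is lost. The study used as many mice as there are libraries in each genotype. The labels do not tie a library to a mouse, and the p-values below measure the spread between libraries. The question of the comparison was whether loss of Nedd4L alters accessibility in these cells.

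The cytosolic ribosome is built from a large and a small subunit, each a set of ribosomal proteins on ribosomal RNA, and nearly every cell needs all of them in matched amounts. Their genes are scattered over the genome and are transcribed from compact promoters. In mammals, transcription of many of them begins at a C inside a run of pyrimidines (C or T), and the resulting pyrimidine tract at the end of the mRNA places its translation under mTORC1. Quiescent stem cells are known for low rates of protein synthesis.

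The promoter sequences that carry this feature, and those of members without it or without a peak, are shown here from RefSeq on GRCm38.p6, the assembly also called mm10. Each holds 60 bases before and 20 bases from the annotated start, 5′ to 3′ on the gene's strand. Capitals mark the longest run of C and T that covers the start or comes within 10 bases of it. Rps6, the substrate of S6 kinase, Rplp2 of the stalk, Rpl15 and Rpl35 are shown for a long tract (10, 10, 17 and 18 bases), and Rps19 and Rps4x for a short one (4 bases each) at the highest and lowest ranked promoter of the set.
Rps6, chr4:86857348-86857427, minus strand: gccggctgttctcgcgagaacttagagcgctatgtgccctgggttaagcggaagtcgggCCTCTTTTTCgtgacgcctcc
Rplp2, chr7:141447591-141447670, plus strand: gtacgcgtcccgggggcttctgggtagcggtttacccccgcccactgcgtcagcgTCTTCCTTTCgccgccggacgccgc
Rpl15, chr14:18270967-18271046, minus strand: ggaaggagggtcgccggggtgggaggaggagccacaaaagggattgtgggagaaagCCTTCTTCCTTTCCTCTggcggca
Rpl35, chr2:39005112-39005191, minus strand: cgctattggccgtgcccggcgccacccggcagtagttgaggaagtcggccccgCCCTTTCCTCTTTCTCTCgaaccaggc
Rps19, chr7:24884532-24884611, plus strand: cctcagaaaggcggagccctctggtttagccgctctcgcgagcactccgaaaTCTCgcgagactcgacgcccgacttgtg
Rps4x, chrX:102189372-102189451, minus strand: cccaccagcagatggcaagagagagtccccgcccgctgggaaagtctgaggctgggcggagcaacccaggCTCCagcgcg

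The next set pairs a ribosomal protein gene with its paralog or retrogene, since the parent had a promoter peak in every library and the copy in none. Rpl3l, the striated muscle form of Rpl3, is given alone because the table used here has no entry for Rpl3. In Rps27rt, another run of C and T, as long as the marked run of 6 bases, begins at the start and is not in capitals.
Rpl10, chrX:74270756-74270835, plus strand: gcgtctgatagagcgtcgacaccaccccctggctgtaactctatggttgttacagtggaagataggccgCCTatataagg
Rpl10l, chr12:66284382-66284461, minus strand: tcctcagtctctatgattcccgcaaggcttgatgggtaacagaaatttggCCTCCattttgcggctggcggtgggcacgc
Rpl39, chrX:37085203-37085282, minus strand: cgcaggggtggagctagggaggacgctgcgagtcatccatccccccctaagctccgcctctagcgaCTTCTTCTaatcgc
Rpl39l, chr16:10170168-10170247, plus strand: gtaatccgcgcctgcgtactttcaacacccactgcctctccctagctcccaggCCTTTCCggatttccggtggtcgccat
Rps27, chr3:90213629-90213708, minus strand: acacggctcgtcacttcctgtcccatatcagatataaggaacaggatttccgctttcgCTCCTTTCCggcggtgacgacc
Rps27rt, chr9:114982720-114982799, minus strand: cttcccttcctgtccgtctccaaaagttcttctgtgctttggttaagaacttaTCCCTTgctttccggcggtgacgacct
Rpl3l, chr17:24727766-24727845, plus strand: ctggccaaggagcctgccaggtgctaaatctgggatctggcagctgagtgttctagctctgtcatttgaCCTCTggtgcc
In their 300-base windows, Rps27 and its retrocopy Rps27rt shared a run of 38 identical bases, which lay at bases 2 to 39 of the Rps27 transcript and at bases 1 to 38 of Rps27rt, so that the transcribed ends matched and the bases before the start did not. The longest run that Rpl10 shared with Rpl10l, or Rpl39 with Rpl39l, was 8 bases.

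Pyrimidine tracts at or within 10 bases of the start were more frequent among ribosomal protein genes than among all promoters. This difference is given here without a test. A promoter sequence, 250 bases before and 50 from the start, was matched for 69 members, 57 of them ribosomal proteins proper. A tract of at least 8 bases, at the start or within 10 bases of it, was found in 25 of these 57 (43.9%). The share was 13.6% of all 17492 protein-coding promoters in the table and 13.04% of 69 mitochondrial ribosomal protein promoters. Not every such tract covered the start, and that of Rpl13a began at base 3 of the transcript. The annotated start was itself a C in 20 of 57 (35.1%), against 13.7% of all promoters. Among the ribosomal proteins with a peak in every library, the 25 with such a tract had a median pileup percentile, as defined below, of 92.3 (74.8 to 99.0) and the 31 without it 90.1 (67.5 to 99.7), which overlapped. The longest tract, 21 bases, was that of Rpl7a, and the shortest were 2 bases, as in Rps3 and Rpl24. Searched on both strands, GGGCGG, the core of the Sp1 motif, was present in 34 of 57 (59.6%; all promoters 46.3%), CCGGAAGT of the ETS and GABP kind in 11 (19.3%; 5.28%), AAGATGGC of the YY1 kind in 5 (8.77%; 3.21%) and TATAAA in 6 (10.5%; 13.3%). The median GC content was 58.0%, beside 56.3% over all promoters. These shares over all promoters include closed ones. Among promoters with a peak in every library, GGGCGG was less frequent in the 56 ribosomal proteins (58.9%) than in all 10284 (66.6%). There the median GC content was also lower (57.5% against 61.3%) and TATAAA more frequent (8.93% against 6.98%). CCGGAAGT (19.6% against 8.09%) and AAGATGGC (8.93% against 4.45%) stayed more frequent in the ribosomal proteins. These are letter matches in a fixed window and were not tested against accessibility.

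MACS2 kept 14.4 to 20.1 M (mega) tags per library and called 69302 to 79158 broad peaks. The cells had been sorted for ITGA7 and against CD31, CD45, CD11b and SCA1. All 8 MuSC marker genes examined, among them Pax7, Myf5, Vcam1 and Itga7, had a promoter peak in every library, as did 59.7% of all promoters. Their peaks ranked low by fold enrichment, at a median percentile of 6.34 against 79.3 over all promoters. The genes of the antigens sorted against (Pecam1, Ptprc, Itgam and Ly6a) had 0 promoter peaks in any library, as did 34.7% of all promoters. WT replicate 3 alone carried the name of another sequencing lane in its peak list, and its part in the results was not tested beyond leaving it out.

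Of the 77 ribosomal proteins proper, 75 had an open promoter in every library of both genotypes. A promoter peak is a peak of the authors' list that overlaps the outer annotated start ± 1 kb. Of 89 members, 80 had one in every library (89.9%), against 59.7% of all 21440 promoters, and 8 had one in none (background 34.7%). Among the ribosomal proteins proper, 45 of 46 of the large and 30 of 31 of the small subunit had a peak in all 7 libraries, and each library held the same number, 75 of 77. Paralogs and retrogenes differed among themselves: 4 of 11 had a peak in every library, 6 in none, and Rps23rg1 in 3. The Rps19-binding protein gene Rps19bp1 had a peak in every library.

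Both missing ribosomal proteins, Rps2 and Rpl17, had a strong peak close by. Rps2, of the mRNA entry side of the small subunit, spans chr17:24718121-24721927 on the plus strand and has another annotated start 1942 bp inside this span. At that start a peak was called in every library, at a pileup percentile of 98.8, 99.7, 98.0 and 98.2 in Nedd4L-cKO and 98.9, 99.1 and 99.4 in WT. These values would place Rps2 among the highest members in either genotype. Rpl17, which lies at the exit of the peptide tunnel, had its nearest peak 1104 to 1166 bp from the outer start, just outside the window, at a pileup percentile of 89.3 to 92.8. With every annotated start used, 81 members had a peak in every library, and with a window of 2.5 kb, 83.

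Peaks at ribosomal protein promoters ranked high by pileup. Pileup is the depth of extended tags in a peak and is not scaled to the depth of the library, so each peak was given its percentile among all peaks of its own library, on a scale that ends at 100 for the strongest peak. Over the 80 members with a peak in every library, the median of the pileup percentile was 90.3, 92.5, 91.5 and 91.4 in the 4 Nedd4L-cKO libraries and 91.9, 92.2 and 91.6 in the 3 WT libraries. The same medians over all 12807 promoters with a peak in every library were 85.7 to 87.2. The member medians of the genotypes overlapped, at 91.4 ± 0.932 (SD, n = 4) and 91.9 ± 0.314 (SD, n = 3). Of the 80 members, 77 (96.3%) had a median percentile over 80, against 65.7% of all these promoters, and 53 (66.3%) one over 90, against 39.4%. The middle ranges of the subunits overlapped: the interquartile range was 88.9 to 95.9 for the large and 88.2 to 94.1 for the small subunit.

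**Figure D1:**
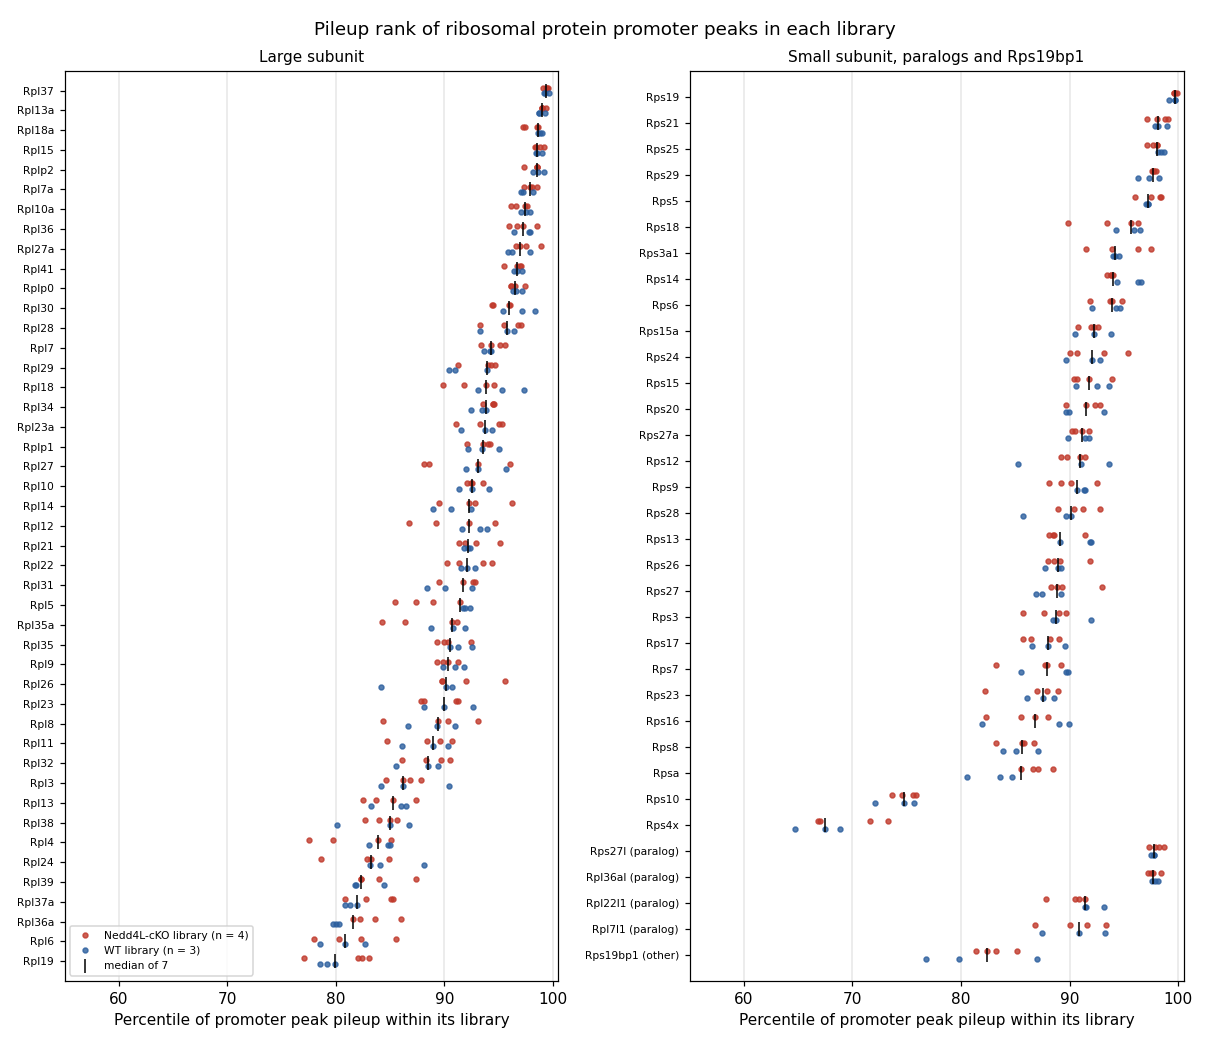
Percentile of the promoter peak's pileup within its library (x axis, 0 to 100, shown from 55) for 79 of the 80 members with a peak in every library (y axis), large subunit on the left and the others on the right; red points are the 4 Nedd4L-cKO libraries, blue points the 3 WT libraries and the black bar their median. Rps19 and Rpl37 sit near 100 in every library and Rps4x, at a median of 67.5, lies lowest, while red and blue points overlap in most rows.

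The 3 highest promoters were those of Rps19, Rpl37 and Rpl13a. Rps19, a small subunit protein whose gene is mutated in Diamond-Blackfan anaemia, had a percentile of 99.7, 99.6, 99.9 and 99.6 in Nedd4L-cKO and 99.7, 99.1 and 99.7 in WT. Rpl37 had 99.4, 99.5, 99.1 and 99.5 in Nedd4L-cKO and 99.3, 99.6 and 99.1 in WT, and had the narrowest range over the 7 libraries of all 80 members, 0.470 points. Its peak was shared with the start of Card6. Rpl13a, which is also known as a regulator of translation in inflammation, stood at 99.0, 99.0, 98.9 and 99.4 in Nedd4L-cKO and 99.3, 98.7 and 98.7 in WT. For each of these 3 genes the genotypes overlapped.

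The 3 lowest of the ribosomal proteins proper were Rps4x, Rps10 and Rpl19. Rps4x, the X-linked form of a small subunit protein, had a pileup percentile of 71.7, 66.8, 73.3 and 67.0 in Nedd4L-cKO and 67.5, 64.7 and 68.8 in WT. Its fold enrichment percentile was 82.7 in the median, so its peak ranked higher against its local background than by depth. Males carry a single X chromosome, and the other X-linked members, Rpl10, Rpl36a and Rpl39, had medians of 92.5, 81.6 and 82.3; the part of copy number in these values was not tested. Rps10, a protein of the small subunit head, had a median of 74.8 and lay on chromosome 17. Rpl19 had a median of 79.95, but the peak at its outer start was shared with Cacnb1, a calcium channel subunit gene. A second peak covered the other annotated starts of Rpl19, 4707 and 4921 bp inside the gene, in every library. Its pileup percentile was 91.5, 94.9, 91.8 and 93.2 in Nedd4L-cKO and 95.9, 91.9 and 91.4 in WT, so the low rank of Rpl19 belongs to the outer start alone.

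Proteins of the stalk and those with known roles outside the ribosome were spread over this range. The stalk recruits translation factors, and its genes Rplp0, Rplp1 and Rplp2 had median percentiles of 96.5, 93.6 and 98.5. Rplp0 was at 96.5, 97.4, 96.2 and 96.1 in Nedd4L-cKO and 97.2, 96.6 and 96.3 in WT. Rps6 had 93.7, 94.8, 93.9 and 91.9 in Nedd4L-cKO and 92.1, 94.6 and 94.3 in WT. In both genes the WT values lay within the Nedd4L-cKO range. Rpl5 and Rpl11, which with 5S RNA bind Mdm2, had medians of 91.4 and 88.9. Rpl3, of the peptidyl transferase centre, had 86.2, Rpl22 had 92.1, and Rpl10, needed for joining of the subunits, 92.5. Rps27 and Rps27a, the latter made as a fusion with ubiquitin, had 88.9 and 91.1. Rpsa, known also as a laminin receptor, had 85.5.

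Ranks by fold enrichment were less uniform than those by pileup. Fold enrichment is the ratio of a peak's pileup to the background that MACS2 estimates in the same library, over the genome or the surrounding 10000 bp, whichever is higher. The median fold percentile of the 80 members was 81.7, 83.002, 79.98 and 78.1 in Nedd4L-cKO and 79.9, 80.1 and 80.6 in WT, and that of all promoters 78.0 to 80.7. The ranges of these medians overlapped. The median fold itself was 4.81 for the members and 4.69 for all promoters. The interquartile range of the percentile was 48.0 to 84.9 for the large subunit and 75.5 to 89.1 for the small subunit, and the difference between the subunits was not tested.

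Several members combined a high pileup with a low fold. The promoter of Rpl35 was at a median of 90.5 by pileup and 18.2 by fold, with 25.8, 32.6, 16.01 and 16.98 by fold in Nedd4L-cKO and 15.3, 18.2 and 32.6 in WT. Rpl8, of the large subunit core, had 89.4 by pileup and 20.5 by fold. Rpl19, with the peak shared with Cacnb1, was lowest by fold, at 4.20, a value of its outer start and not of the second peak described above. These genes were chosen after their values were seen, except Rpl19. Of the 80 members, 14 had a median fold percentile under 50; the median number of bases covered by other peaks within 5 kb of their start was 868, and 4 of the 14 had no other peak there. Of the other 66, 57 had no other peak within 5 kb. Over all promoters the same split gave 206.5 bases and 48.0% without another peak for the 2696 under 50, and 87.6% without one for the rest. The local background is taken over the region in which these other peaks lie, and their part in the fold was not tested.

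**Figure D2:**
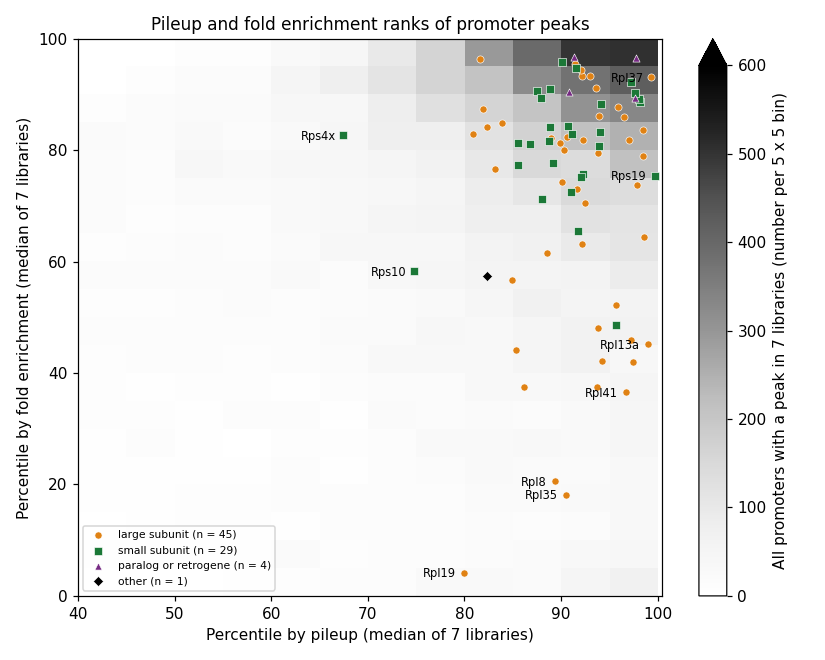
Median percentile by pileup (x axis, shown from 40) against median percentile by fold enrichment (y axis) over 7 libraries; coloured points are 79 of the 80 members by class and the grey scale is the number of all 12807 promoters per 5 by 5 bin. Most members lie in the upper right corner with the bulk of all promoters, and Rpl35, Rpl8 and Rpl19 fall below a fold percentile of 25.

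The peaks covered both sides of the start. The median peak length over the 80 members was 1259, 1291, 1259 and 1306 bp in Nedd4L-cKO and 1282, 1287 and 1275 bp in WT, within the range of the medians over all promoters, 1259 to 1380 bp. From the outer start the median peak reached 618 bp upstream and 686 bp downstream, against 476 and 787 bp over all promoters. The start lay inside the peak in every library for 77 of 80 members (96.3%) and for 85.5% of all promoters. The exceptions were Rpl22 and the paralog Rps27l, whose outer start was upstream of the peak in all 7 libraries, and Rpl38, whose start was inside the peak in 1 library.

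The longest peaks of ribosomal proteins proper were at Rpl41 and Rpl7, and the shortest at Rpl28 and Rps28. Rpl41, which codes for the smallest ribosomal protein, had a peak of 1072, 3329, 3344 and 2659 bp in Nedd4L-cKO and 2573, 2715 and 2665 bp in WT. The peak was shorter in Nedd4L-cKO replicate 1 than in any other library, and the range over libraries, 2272 bp, was the widest of the 80 members. Rpl7 had 2193, 2281, 2245 and 2257 bp in Nedd4L-cKO and 2275, 2277 and 2249 bp in WT, with 1895 bp of the median peak upstream, and the peak was shared with the start of Rdh10. Rpl28 had 935, 874, 708 and 662 bp in Nedd4L-cKO and 840, 855 and 845 bp in WT. Rps28 had 821, 855, 846 and 863 bp in Nedd4L-cKO and 856, 1081 and 831 bp in WT, and the peak was shared with Ndufa7. The genotypes overlapped in length for all 4 genes. In all, 16 of the 80 members had a peak that also covered the promoter window of another protein-coding gene in every library, so that its values belong to both genes.

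**Figure D3:**
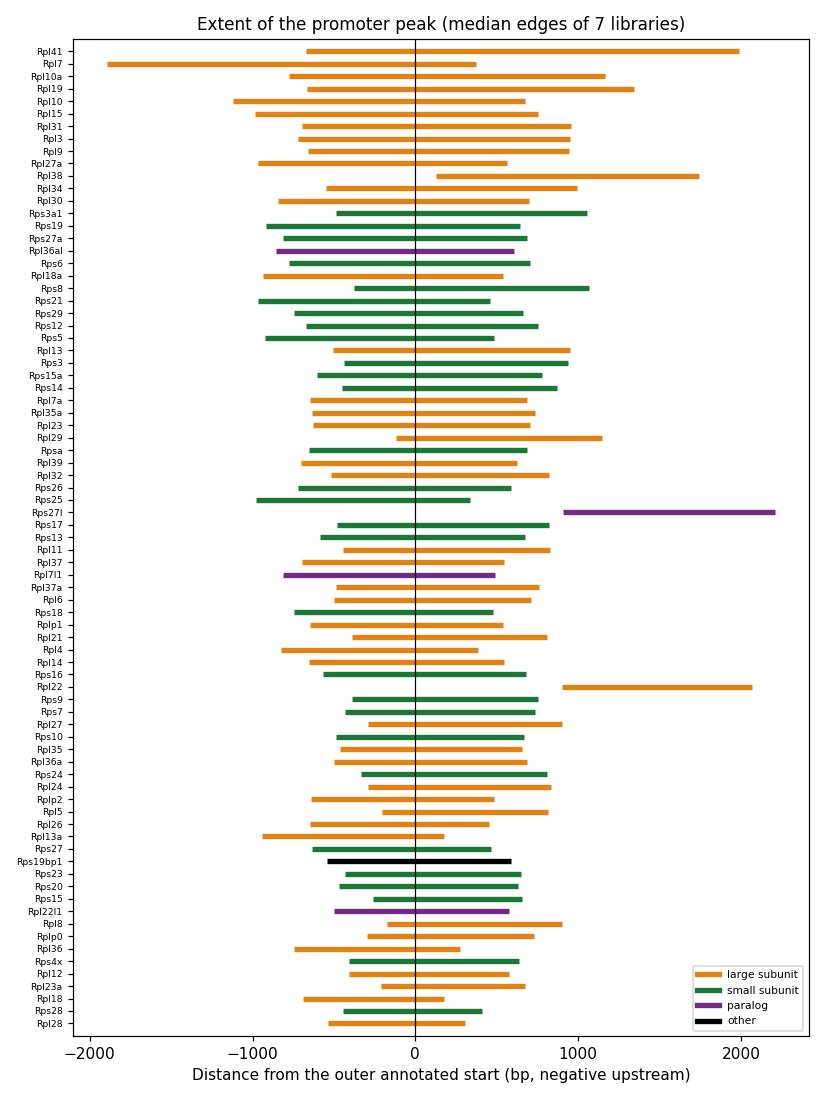
Extent of the promoter peak around the outer annotated start (x axis, bp, negative upstream) for 79 of the 80 members ordered by median length (y axis); each bar joins the median upstream and downstream edges over 7 libraries and its colour is the class. Rpl41 and Rpl7 extend to opposite sides, to 1991 bp downstream and 1895 bp upstream, and the bars of Rpl22, Rpl38 and Rps27l begin downstream of the start.

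Of the 11 paralogs and retrogenes, 4 had a promoter peak in every library. Rps27l, a p53 target, had a pileup percentile of 98.2, 97.4, 97.9 and 98.7 in Nedd4L-cKO and 97.8, 97.8 and 97.5 in WT. Rpl36al, whose peak was shared with Mgat2, had 97.2, 98.5, 97.7 and 97.5 in Nedd4L-cKO and 97.6, 97.9 and 98.1 in WT. Rpl22l1, the paralog of Rpl22, had a median of 91.4, and Rpl7l1 one of 90.9. The median over the 75 ribosomal proteins proper with a peak was 91.8. The parents Rps27, Rpl36a, Rpl22 and Rpl7 stood at 88.9, 81.6, 92.1 and 94.3.

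Another 6 had no peak within 1 kb of the start in any library. Rpl3l, which replaces Rpl3 in the ribosomes of heart and skeletal muscle fibers, lies at chr17:24727826-24736143, just downstream of Rps2; its nearest peak was 3133 to 3197 bp from the start. Rpl10l, known from the testis, had its nearest peak 247481 to 247811 bp away, and Rpl39l, also known from the testis, 22141 to 22194 bp away. The retrogenes Rps27rt, Rpl37rt and Rpl32l had their nearest peak 3316 to 3391, 1330 to 1734 and 3020 to 8645 bp away. Rps23rg1, a retrogene of Rps23, had a short peak of 488 and 425 bp in Nedd4L-cKO replicates 3 and 4 and of 407 bp in WT replicate 1, at pileup percentiles of 29.7, 4.35 and 22.2. Those 3 libraries kept the most tags of the 7, and the part of depth in these calls was not tested.

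No member passed the test between Nedd4L-cKO and WT in pileup rank, fold rank or length. Each measure was fitted with limma over all 12807 promoters with a peak in every library, with Benjamini-Hochberg adjustment over all of them. Ranks entered as normal scores, which map the rank to a standard normal distribution in units of its SD, and lengths as log2. At an adjusted p under 0.05, 0 of 80 members were called in each measure, beside 0% of all promoters for pileup, 0.00781% for fold and 0.00781% for length. At an unadjusted p under 0.05 there were 4 members for pileup (5.0%; 2.40% of all promoters), 1 for fold (1.25%; 4.53%) and 1 for length (1.25%; 3.62%). The median difference, Nedd4L-cKO minus WT, over the 80 members was -0.0014 in normal score for pileup, 0.07 for fold and 0.0064 in log2 for length, and over all promoters -0.0040, 0.05 and 0.0032. A difference of the median size of the 95% interval's half-width, 0.19 for pileup rank, 0.31 for fold rank and 0.18 in log2 length, could not be told from 0 at a single member. The intervals were not adjusted for the 12807 promoters tested, so the adjusted test could miss larger differences as well.

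Members with the lowest unadjusted p in pileup were Rps14, Rpl5, Rpsa and Rpl36a. Rps14, a small subunit protein linked to the anaemia of the 5q- syndrome, had a percentile of 93.5, 93.9, 93.8 and 94.0 in Nedd4L-cKO and 96.3, 96.6 and 94.3 in WT. Every WT value lay above the Nedd4L-cKO values, with a difference of -0.19 ± 0.08 (SE) in normal score (limma, adjusted p = 0.9996). Rpl5 had 85.5, 91.4, 87.4 and 89.0 in Nedd4L-cKO and 92.3, 91.7 and 91.9 in WT, a difference of -0.20 ± 0.09 (limma, adjusted p = 0.9996). Here too the groups did not overlap. Rpsa had 87.1, 88.5, 85.5 and 86.7 in Nedd4L-cKO and 80.6, 84.7 and 83.6 in WT, a difference of 0.17 ± 0.08 (limma, adjusted p = 0.9996). Rpl36a had 83.6, 82.3, 86.0 and 81.6 in Nedd4L-cKO and 80.2, 79.7 and 79.99 in WT, a difference of 0.13 ± 0.08 (limma, adjusted p = 0.9996). None of the 4 passed adjustment.

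Genotype groups that did not overlap were few in each measure. In pileup rank, 2 members (2.5%; Rpl36a and Rpsa) had every Nedd4L-cKO library above every WT library, against 1.7% of all promoters, and 4 (5.0%; Rpl5, Rpl22l1, Rps14 and Rps25) had every one below, against 1.94%. In fold rank, 3 members (3.75%; Rpl10, Rpl36a and Rps29) had Nedd4L-cKO above WT, against 4.47%, and 0 below, against 1.36%. In length, 0 members separated in either direction, against 2.64% with Nedd4L-cKO above and 1.77% below.

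In fold rank and length the members with the lowest p did not pass adjustment either. Rpl36a, a large subunit protein at the tRNA exit site, had a fold percentile of 97.0, 96.5, 97.3 and 96.5 in Nedd4L-cKO and 95.4, 93.6 and 94.1 in WT, a difference of 0.27 ± 0.11 in normal score (limma, adjusted p = 0.968). Rps29, next in this direction, had a fold percentile of 92.1, 93.3, 92.1 and 90.4 in Nedd4L-cKO and 89.7, 87.3 and 87.5 in WT (limma, adjusted p = 0.968). In the other direction the lowest p were those of Rpl18, at -0.29 ± 0.16, and Rpl5, at -0.26 ± 0.18 (adjusted p = 0.968 for both with limma). Both overlapped between the genotypes, and the difference of Rpl18 turned to 0.0454 with every annotated start. For length, Rpl5 had 1200, 1138, 1178 and 1114 bp in Nedd4L-cKO and 976, 1123 and 994 bp in WT, a difference of 0.17 ± 0.06 in log2 (limma, adjusted p = 0.9987). Rpl22l1 was longer in Nedd4L-cKO by 0.19 ± 0.09, and Rpl6 and Rpl26 differed by -0.29 ± 0.12 and -0.22 ± 0.11 (adjusted p = 0.9987 for each with limma). The lengths of these 4 genes overlapped between the genotypes.

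**Figure D4:**
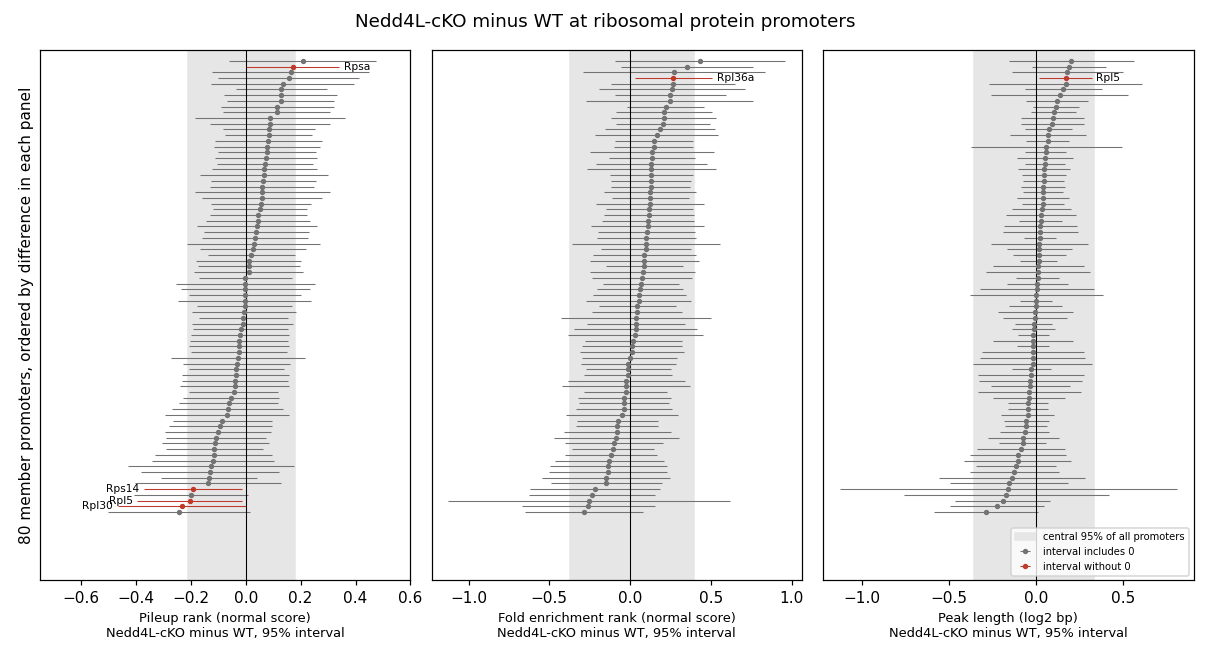
Nedd4L-cKO minus WT with its 95% interval (x axes) for pileup rank and fold enrichment rank in normal scores and for peak length in log2 bp, for the 80 members ordered by difference in each panel (y axes); the grey band holds the central 95% of all 12807 promoters and red marks intervals without 0. Intervals without 0 occur for 4 members in pileup (Rps14, Rpl5, Rpl30 and Rpsa), for Rpl36a in fold and for Rpl5 in length, and 0 members passed the adjusted test.

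Genes that act with the ribosome were open in the same libraries. As background, 59.7% of all promoters had a peak in every library, with a median pileup percentile of 86.6. Fau, which codes for a ribosomal protein fused to a relative of ubiquitin and which the symbol rule does not catch, had a peak in every library, at a median pileup percentile of 93.0. All 20 translation factors and associated genes had one, with a median of 95.2, among them Eef1a1, which delivers tRNA to the ribosome (98.0), and Tpt1 (99.8). Of 16 genes of ribosome biogenesis, 15 had one, with a median of 88.7 and the nucleolar protein gene Ncl at 99.1; Ubtf had a peak in every library only when all its annotated starts were used. Of 9 genes of mTORC1 and S6 kinase, 8 had one, Mtor at 98.7 and the S6 kinase gene Rps6kb1 at 90.4, with Larp1 again open at another start. All 7 regulators that bind such promoters had one, with Sp1 at 99.98, Yy1 at 99.0 and Gabpa at 97.6. Mycn was the lowest of these 7, at 89.1. By fold enrichment the percentiles of Myc and Mycn were 1.18 and 5.90, against a median of 72.8 over the 7. Of the 52 genes of these 5 lists with a peak in every library, limma called 0 between the genotypes in each measure, with an unadjusted p under 0.05 for 1 in pileup, 0 in fold and 0 in length, beside 2.40%, 4.53% and 3.62% of all promoters.

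The mitochondrial ribosomal proteins and the proteasome give other housekeeping sets for comparison, here described without a test. A peak in every library was found for 73 of 78 mitochondrial ribosomal protein genes and 38 of 40 proteasome genes, beside the 75 of 77 cytosolic ribosomal proteins. The share over all promoters was 59.7%. With every annotated start, the counts were 77, 39 and 76. The median pileup percentile was 84.1 for the mitochondrial ribosomal proteins, 89.9 for the proteasome and 91.8 for the cytosolic ribosomal proteins. By fold enrichment the order was the reverse, at 93.7, 90.3 and 81.1. The median peak length was 1142, 1209 and 1302 bp. In limma, 0 genes of either set were called in pileup, fold or length; an unadjusted p under 0.05 was found for 0, 1 and 3 mitochondrial ribosomal protein genes and for 0, 1 and 0 proteasome genes, beside 2.40%, 4.53% and 3.62% of all promoters.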

How the data were processed

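ATAC-seq of 4 Nedd4L-cKO and 3 WT libraries of sorted MuSCs was analysed from the authors' peak lists, grouped by the genotype in the labels. Per the study's methods and the submitters' processing notes, reads were trimmed with Trimmomatic 0.39, aligned to mm10 with BWA 0.7.17, filtered with SAMtools, and cleared of duplicates with Picard 2.26.3. Per the file headers, the authors called broad peaks with MACS2 2.2.7.1 for each library alone, without a control, at q-values of 0.1 (broad) and 0.05 (narrow), with tags extended to 200 bp around the Tn5 cut. The deposited pileup is a signal, the coverage of extended tags, unscaled for depth. Fold enrichment, also deposited, is a ratio to the library's own local background. Significance was deposited as -log10 of the p-value and of the q-value, and the latter served for 1 alternative.

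Gene spans came from RefSeq on GRCm38.p6, and strands from the RefSeq promoter table (17492 genes) or, by symbol and chromosome, from GENCODE (3948), together 21440 of 21887 protein-coding genes on the 19 autosomes, X and Y. The start was the outer end of the span. Where several peaks overlapped the start ± 1 kb, the one with most bases inside was taken, and percentiles were taken among all peaks of the library. limma 3.58.1 (lmFit and eBayes, R 4.3.3, two-sided) was fitted to all 7 libraries with no covariate and tested on simulated data. Between any pair of libraries, 0 peaks were identical in position and pileup. Depth limits the precision of every rank, and no interval for counting error is given because the peak lists hold no counts. Tables were made in Python 3.11.15 with pandas 2.3.3, numpy 2.4.6 and scipy 1.17.1.

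The members and lists were chosen with earlier results of these data known. Genes named are members without a peak in some library, the 3 highest and 3 lowest ribosomal proteins by median pileup percentile, the 2 longest and 2 shortest peaks, the 2 members with the lowest p in each direction of each fit, the paralogs, and a list of 16 well-studied members, plus Rpl8, Rpl35, Rpl15, Rpl7a, Rps3, Rpl24, Rpl30, Rps25 and Rpl38, chosen after their values were seen. Rps4l, annotated as a pseudogene, is no member. Among members and lists, 2 genes enter the counts and are otherwise not reported here. The class of the retrogenes Rpl32l, Rpl37rt and Rps23rg1 was set once the annotation had been read. Alternatives were other windows, starts, peak filters and rank scales, a covariate for depth, the replicate block, merged regions, autosomes alone, robust eBayes and leaving out each library.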

Additional observations from a re-analysis of the deposited data

Results flagged for a closer look

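In the 4 Nedd4L-cKO libraries, 103 sets of values of the members and named genes were examined for a library far from the other 3, and 3 were found (2.91%); chance alone gives about 5%. Rplp2 had a pileup percentile of 97.3 in Nedd4L-cKO replicate 3, against 98.48 to 98.51 in the others. Rpl13a had one of 99.4 in Nedd4L-cKO replicate 4, against 98.9 to 99.0 in the others. The Rpl19 peak, shared with Cacnb1, was 2145 bp long in Nedd4L-cKO replicate 3 and 1927 to 1962 bp in the others, and WT values of 1966, 2143 and 2162 bp spanned the same range.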

How the results depend on the processing

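The count of members with a peak in every library was 80 and ranged from 78 (window of 500 bp) to 83 (2.5 kb) over 13 alternatives, at 80 without any library in turn. In the 3 limma fits, 0 members were called under all alternatives, WT replicate 3 left out included, with 0 to 1 promoters called in all for pileup, 0 to 1 for fold and 0 to 6 for length. The Nedd4L-cKO minus WT difference of the member medians was -0.44 points by pileup percentile, -1.49 with peaks of a -log10 q of at least 5 and -1.44 with percentiles among promoter peaks alone; the other 13 alternatives for it, and all 15 each for fold and length, moved it by less than 1 SD between libraries. Of 222 differences of the named genes under alternatives, 221 kept their direction, and the fold rank of Rpl18 turned from -0.29 to 0.0454 with every annotated start, where another peak inside the gene is taken. With the replicate number as a block, 0 members and 0 promoters were called in each fit. In pileup rank the correlations of the deviations of same-numbered libraries were -0.25, 0.04 and -0.20. Those of differently numbered libraries ran from -0.23 to 0.27. The check cannot tell whether a number marks a shared litter or day, since deviations shared for another reason could hide it. Of 493 pileup percentiles of named genes, 70 moved by over 1 SD, with no test attached. Differences smaller than the intervals given in the report could not be told from 0 with these libraries, and the part of depth in that limit was not tested. The intervals are unadjusted, and the adjusted test could miss larger differences too.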
